A study of Mus musculus with 4 samples.

Results

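A set of 46 genes of the lysosome was examined in group 2 innate lymphoid cells (ILC2s) from the bronchoalveolar lavage (BAL) fluid of mice. The genes were chosen by gene symbol from the 24537 genes with a value in each library. They encode cathepsins and other lysosomal proteases, glycosidases, sulfatases, lipid hydrolases and their activator proteins, membrane proteins, subunits of the proton pump and the TFEB family of transcription factors. The study compared ILC2s activated by IL-33, an alarmin cytokine, with ILC2s activated by prolonged exposure to house dust mite (HDM) extract, with 2 RNA-Seq libraries per stimulus. GATIR mice on a C57BL/6 background were used, about 8 to 16 weeks old, in which an IRES-YFP reporter sits in the 3′ untranslated region of *Gata3*. In the IL-33 group, mice received 3 doses of 0.5 µg IL-33 into the nose or trachea, given every other day. In the chronic HDM group, 25 µg HDM was given into the nose 3 times a week for 5 weeks. Cells of both groups were taken 1 day after the last dose and sorted from BAL fluid as Lineage-, Sca-1+ and YFP+. The sample labels give the genotype as Gata3-YFP/YFP for the IL-33 mice and Gata3-YFP/WT for the HDM mice, whereas the study's methods name homozygous mice only. The labels also call the populations CD25High (IL-33) and CD25Low (chronic HDM), and no CD25 gate is described for the sort. Stimulus, duration of exposure, reporter genotype and a possible CD25 gate therefore cannot be told apart.

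Depth was 12054781 and 10696041 reads in genes in the IL-33 libraries and 16092268 and 15650724 in the chronic HDM libraries. Of these reads, a 45S ribosomal RNA gene took 3.45% to 4.95% in the IL-33 group but 17.4% to 25.4% in the chronic HDM group. On a transcript of 1 kb, 3 reads were worth between 0.156 and 0.255 RPKM (reads per kilobase of exon, scaled to the mapped reads of the library, which is a level per length). The cDNA was amplified by PCR without molecular identifiers, so limits from read numbers cover counting error only. All 14 ILC2 markers were detected in every library, with a summed level of 2289 to 3268 RPKM, of which *Id2* alone gave 1060 to 1525 RPKM. In the test described below, *Il2ra* and *Il5* passed with higher levels after IL-33, and *Gata3* and *Il1rl1* with higher levels after chronic HDM. *Gata3* itself lay at 14.9 and 18.9 RPKM after IL-33 and at 216 and 195 RPKM after chronic HDM. Markers of macrophages, a cell type rich in lysosomes, were present in each library and highest in chronic HDM replicate 2, and their values are given with the results they move with. Mast cell and basophil, dendritic cell and B cell markers summed higher in both IL-33 libraries. Eosinophil, neutrophil and epithelial markers summed higher in both chronic HDM libraries, and T cell markers overlapped. *Mcpt8*, of the mast cell and basophil list, lay at 45.8 and 39.2 RPKM after IL-33 and at 0 in both chronic HDM libraries (adjusted p = 0.00665 by limma). As RNA was measured in bulk, fewer cells of a type and less RNA per cell cannot be told apart.

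Lysosomes are acidic organelles in which hydrolases degrade proteins, sugars, sulfated glycans and lipids. A vacuolar proton ATPase (V-ATPase) keeps them acidic, and most of the soluble enzymes reach them by a mannose 6-phosphate tag. TFEB and its relatives TFE3 and MITF activate many lysosomal genes through an E-box in their promoters, and nutrient signalling by mTORC1 on the lysosomal surface holds them in the cytoplasm. Cathepsins are lysosomal proteases that in immune cells also process antigens and activate granule enzymes.

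Lysosomal genes were abundantly expressed in both groups, and the difference that passed the test was a higher level of *Glb1* after IL-33. *Glb1*, which encodes the lysosomal β-galactosidase, lay at 143 and 156 RPKM in the IL-33 libraries and at 28.6 and 25.4 RPKM in the chronic HDM libraries. The groups did not overlap, and each pair of libraries lay close together. *Ctsh*, *Lgmn* and *Galns* had at least 3-fold higher mean levels after IL-33, whereas *Ctsd*, *Ctsl*, *Sgsh* and *Ids* had higher levels in both chronic HDM libraries, and none of these passed the threshold.

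Reads of the 46 genes were 105157 and 100073 in the IL-33 libraries and 124176 and 166214 in the chronic HDM libraries. They made up 0.872% and 0.936% of reads in genes after IL-33, against 0.772% and 1.06% after chronic HDM. With 45S ribosomal RNA left out, the shares were 0.918%, 0.969%, 0.935% and 1.42%, so that chronic HDM replicate 2 stood above the other 3 libraries. In the IL-33 libraries the highest mean levels per length were those of *Ctsz*, *Ctsd*, *Psap* and *Lgmn*. In the chronic HDM libraries they were those of *Ctsd*, *Psap*, *Ctsz* and *Ctsw*. *Ctsh* stood in place 6 of 46 after IL-33 and in place 28 after chronic HDM, and *Glb1* in places 9 and 26.

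Of the 46 genes, 44 reached the minimum of 2 RPKM on average and were tested with limma. The test was run on log2(RPKM + 1), where the added 1 shrinks differences between low levels. *Tfeb* and *Mitf* lay below that minimum. To pass, a gene needed an adjusted p below 0.01 together with a log2 fold change beyond 1 in size, and positive values stand for higher levels after IL-33. On this basis 1 gene (*Glb1*) passed with a higher level after IL-33, where 2.8% of the 9523 genes tested did so, and 0 passed with a higher level after chronic HDM, where 0.536% did. At an unadjusted p under 0.05, 13 of the 44 genes were higher after IL-33 and 5 after chronic HDM, together 18, against 36.7% of all genes tested in either direction. With limma-voom on reads recovered from the RPKM values, 0 of the 44 genes and 0 of all genes tested passed in either direction. A two-sided exact permutation test of 2 libraries against 2 cannot give a p below 0.333 for a single gene. The number of mice behind a library is not stated, nor whether replicates are separate mice, and p-values therefore rest on a spread between libraries that may be technical.

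At an adjusted p below 0.05 with the same fold change, 5 of the 44 genes were higher after IL-33, against 13.8% of all genes tested, and 0 after chronic HDM, against 4.78%. These were *Glb1*, *Ctsh*, *Lgmn*, *Atp6v0d1* and *Galns*. At any fold change, the numbers were 7 (15% of all genes tested) and 1 (4.98%). The libraries of the groups did not overlap for 19 genes that were higher after IL-33 (41.7% of all genes tested) and for 11 that were higher after chronic HDM (23.5%). With a log2 fold change over 1 in size, the numbers were 7 (23.9% of all genes tested) and 4 (12%). The median log2 fold change of the 44 genes was 0.19, with a range from −1.70 to 2.83, and the median of all genes tested was 0.28. Scaling by quantiles, by the median of ratios or without 45S ribosomal RNA lowered the median of all genes tested by 0.29, 0.22 and 0.27. The sign of log2 fold changes near 0 depends on that choice, and larger values moved as well. Under quantile scaling *Ctsa* went from 0.77 to 0.25 (adjusted p = 0.446 by limma). Over 16 alternative fits, the lowest values were 0.21 for *Gm2a*, 0.22 for *Grn*, 0.14 for *Lamp2*, −0.97 for *Lamp1* and −1.54 for *Ctsw*.

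**Figure D1:**
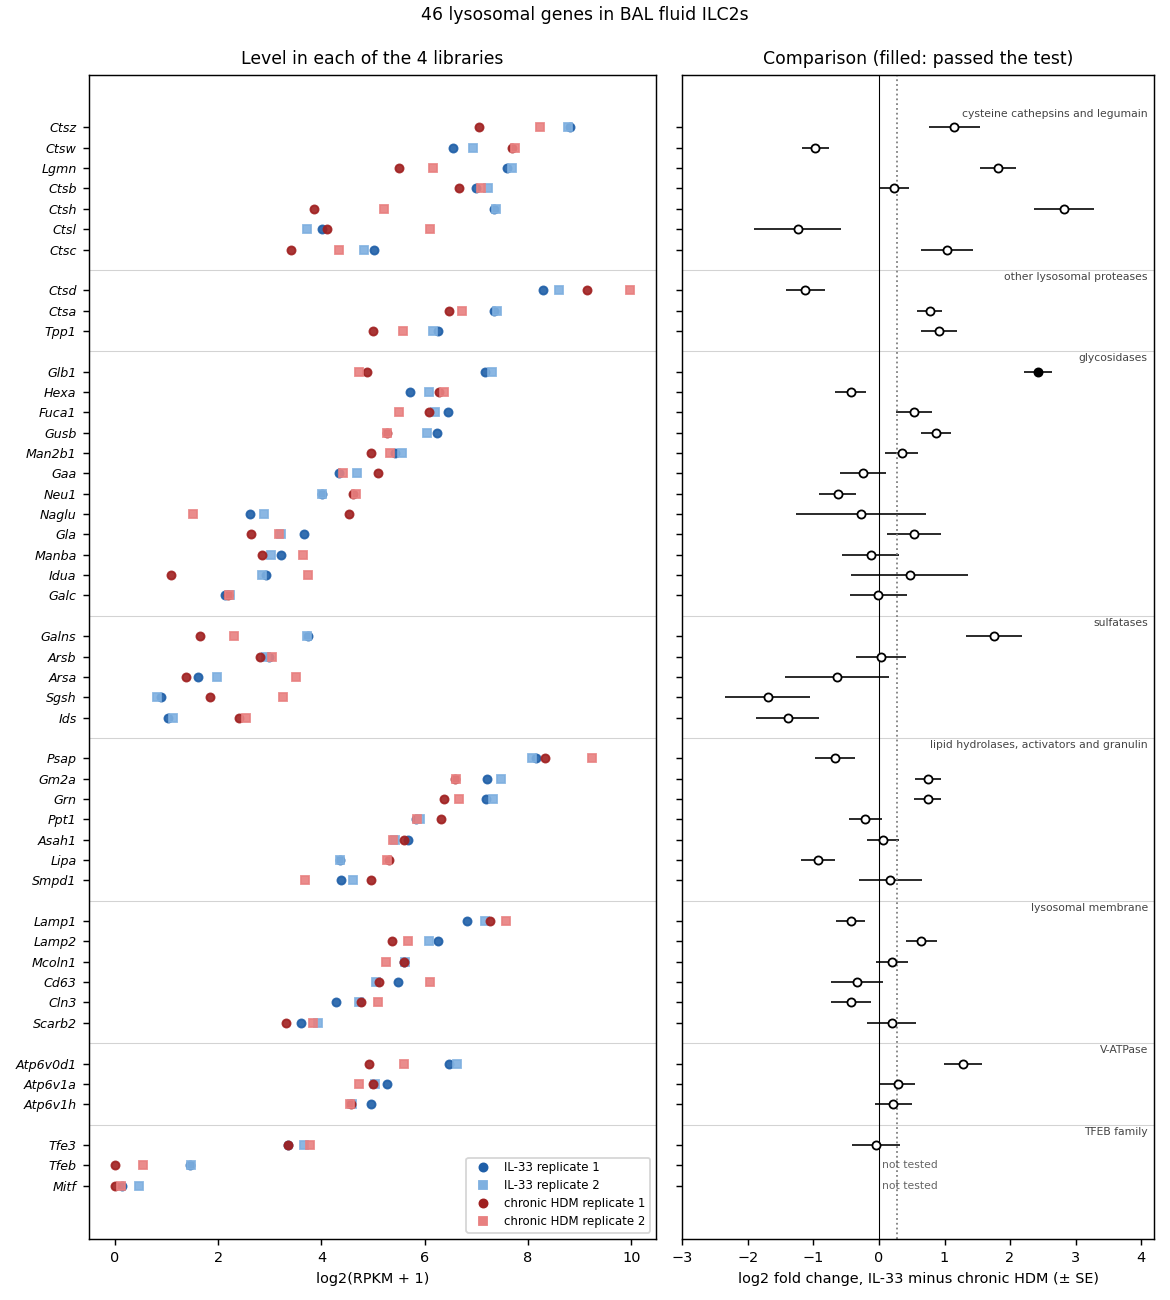
Levels and comparison of the 46 lysosomal genes, grouped by role. The left panel plots log2(RPKM + 1) in each of the 4 libraries (blue, IL-33; red, chronic HDM; circles, replicate 1; squares, replicate 2), and the right panel the log2 fold change with its standard error, where the filled point passed the test and the dotted line marks the median of all genes tested, 0.28. *Glb1* holds the filled point, and *Ctsh* lies farthest to the right at 2.83.

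Of the TFEB family, *Tfe3* was the member with most RNA, at a low level in all 4 libraries. *Tfe3* lay at 9.23 and 11.7 RPKM after IL-33 and at 9.15 and 12.7 RPKM after chronic HDM. The groups overlapped (log2 fold change −0.049, SE 0.37, adjusted p = 0.938 by limma). *Tfeb* lay at 1.72 and 1.77 RPKM after IL-33, from 51 and 47 reads, and at 0 and 0.456 RPKM after chronic HDM, from 0 and 19 reads. Both IL-33 libraries thus stood above both chronic HDM libraries at a level at which *Tfeb* was not tested. With no minimum level, limma gave it a log2 fold change of 1.19 and an adjusted p of 0.0945. *Mitf* had 6 and 22 reads after IL-33, against 0 and 8 after chronic HDM, the lowest level of the 46 genes in both groups. *Tfec*, a further relative of this family that was named after its values had been seen, was listed at 0 RPKM in both IL-33 libraries and lay at 11.4 and 5.47 RPKM after chronic HDM (adjusted p = 0.0202 by limma, not passed).

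The E-box core CACGTG was searched in RefSeq promoters (GRCm38.p6, the assembly of mm10), from 250 bases before to 50 after each start site. It reads the same on both strands. Promoters were found for 40 of the 46 genes, and 15 of them (37.5%) held the core, compared with 8.09% of 27025 genes with a promoter and 12.6% of 7378 tested genes with one. The longer motif TCACGTGA, which contains the core and is the center of the element known for TFEB, stood in 7 (17.5%), against 1.12% and 2.60%. GTCACGTGAC, which contains both, stood in 1 (2.5%), *Cln3*, against 0.370% and 0.976%. Windows of 30 bases around the core of 5 genes are printed 5′ to 3′ on the strand of the gene, with the core in capitals, to show genes with positive and with negative log2 fold changes.

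Lgmn, chr12:102439124-102439153 (mm10, minus strand): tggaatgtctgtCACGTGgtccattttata

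Atp6v0d1, chr8:105566050-105566079 (mm10, minus strand): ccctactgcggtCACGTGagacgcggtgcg

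Mcoln1, chr8:3500462-3500491 (mm10, plus strand): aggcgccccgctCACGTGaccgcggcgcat

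Cln3, chr7:126583340-126583369 (mm10, minus strand): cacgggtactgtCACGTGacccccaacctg

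Sgsh, chr11:119355522-119355551 (mm10, minus strand): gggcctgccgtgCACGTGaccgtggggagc

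Log2 fold changes in the order printed were 1.82 for *Lgmn*, 1.28 for *Atp6v0d1*, 0.20 for *Mcoln1*, −0.43 for *Cln3* and −1.70 for *Sgsh*. Genes with a core thus had values on both sides of 0. The *Lgmn* core lies inside the span of the deposited gene, before the start site of another RefSeq transcript. Over the tested genes, the median log2 fold change was −0.24 for the 15 with a core, 7 of them above 0, and 0.18 for the 23 with a promoter but no core, 13 of them above 0. A core is a match of letters and was not measured as a bound site.

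The cysteine proteases held members that differed in either direction, and none of the 7 passed the test. *Ctsh*, *Lgmn*, *Ctsz* and *Ctsc* had higher levels in both IL-33 libraries, and *Ctsw* and *Ctsl* had higher levels in both chronic HDM libraries. At an unadjusted p under 0.05 by limma, 4 were higher after IL-33 and 1 after chronic HDM, against 36.7% of all genes tested in either direction. Their median log2 fold change was 1.04.

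*Ctsh* (chr9:90054267-90076095) encodes cathepsin H, an aminopeptidase that also cleaves within proteins. It lay at 160 and 165 RPKM after IL-33 and at 13.4 and 35.9 RPKM after chronic HDM. Both IL-33 values lay far above both HDM values, while the chronic HDM libraries differed by 1.35 on the log2 scale. The mean was 162.5 ± 3.22 RPKM (SD, n = 2) after IL-33 and 24.6 ± 15.9 (SD, n = 2) after chronic HDM, a ratio of 6.60. This was the largest log2 fold change of the 44 genes (2.83, SE 0.46) and did not pass, with an adjusted p of 0.0156 by limma. *Lgmn* (chr12:102394082-102439813) encodes legumain, an endopeptidase that cuts after asparagine and processes other cathepsins. It lay at 193 and 205 RPKM after IL-33 and at 44.3 and 70.2 RPKM after chronic HDM. The groups were well apart, with a ratio of means of 3.48 and a log2 fold change of 1.82 (SE 0.27, adjusted p = 0.0130 by limma).

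*Ctsz* (chr2:174427494-174439039), the carboxypeptidase cathepsin Z, was the highest of the 46 genes after IL-33, at 448 and 435 RPKM. After chronic HDM it lay at 131 RPKM in replicate 1 and at 300 RPKM in replicate 2. Both HDM libraries were below both IL-33 libraries, but at very unequal distance (log2 fold change 1.15, SE 0.39, adjusted p = 0.0943 by limma). *Ctsc* (chr7:88278085-88315861), the dipeptidyl peptidase that activates granule serine proteases, lay at 31.5 and 27.3 RPKM after IL-33 and at 9.68 and 19.2 RPKM after chronic HDM, with replicate 1 lowest. Its log2 fold change was 1.04 (SE 0.40, adjusted p = 0.121 by limma).

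*Ctsl* (chr13:64361890-64370520), the endopeptidase cathepsin L, lay at 15.1 and 12.2 RPKM after IL-33 and at 16.2 and 68.0 RPKM after chronic HDM. Only chronic HDM replicate 2 stood apart, and replicate 1 exceeded IL-33 replicate 1 by little more than 1 RPKM. The log2 fold change was −1.24 (SE 0.67, adjusted p = 0.238 by limma). *Ctsw* (chr19:5465043-5468507), a cathepsin known from cytotoxic lymphocytes and natural killer cells, lay at 92.7 and 121 RPKM after IL-33 and at 205 and 213 RPKM after chronic HDM. It was the only member with a higher level after chronic HDM at an adjusted p under 0.05 (log2 fold change −0.97, SE 0.21, adjusted p = 0.0298 by limma), and its fold change did not reach the threshold. *Ctsb*, the cysteine protease cathepsin B, had overlapping groups between 101 and 149 RPKM.

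Among the other proteases, *Ctsd* was higher in both chronic HDM libraries, and *Ctsa* and *Tpp1* were higher in both IL-33 libraries. *Ctsd* (chr7:142375916-142387870) encodes cathepsin D, the main aspartic protease of the lysosome, and was the highest of the 46 genes after chronic HDM. It lay at 313 and 384 RPKM after IL-33 and at 566 and 1007 RPKM after chronic HDM. The groups did not overlap, and the chronic HDM libraries differed from each other by more than the lower of them did from IL-33 replicate 2. The mean was 2.26-fold higher after chronic HDM (log2 fold change −1.12, SE 0.30, adjusted p = 0.0526 by limma). The 207 bases of the *Ctsd* promoter that lie before the deposited gene span are printed with both E-box cores in capitals, since this gene holds cores and had its higher level after chronic HDM.

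Ctsd, chr7:142387871-142388077 (mm10, minus strand): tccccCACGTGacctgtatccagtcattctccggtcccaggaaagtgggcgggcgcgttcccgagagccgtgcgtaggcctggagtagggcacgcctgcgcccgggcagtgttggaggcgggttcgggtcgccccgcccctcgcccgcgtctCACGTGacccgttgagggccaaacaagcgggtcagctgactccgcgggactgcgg

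*Ctsa*, a carboxypeptidase that also protects β-galactosidase and neuraminidase in a complex, lay at 161 and 168 RPKM after IL-33 and at 87.3 and 105 RPKM after chronic HDM. The groups did not overlap (log2 fold change 0.77, SE 0.19, adjusted p = 0.0450 by limma), and the difference was below the fold threshold. *Tpp1*, which removes tripeptides from protein ends, lay at 75.3 and 70.1 RPKM after IL-33 and at 30.9 and 46.8 RPKM after chronic HDM (log2 fold change 0.92, SE 0.28, adjusted p = 0.0737 by limma).

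*Glb1* was the glycosidase that passed the test, and the other 11 did not. *Glb1* (chr9:114401078-114474379) had a mean of 149.6 ± 9.50 RPKM (SD, n = 2) after IL-33 and of 27.0 ± 2.24 RPKM (SD, n = 2) after chronic HDM. The ratio was 5.54 (log2 fold change 2.43, SE 0.21, adjusted p = 0.00687 by limma). The difference between the groups was many times the difference within either pair. With IL-33 replicate 1 or 2 left out, the log2 fold change was 2.49 or 2.36. With chronic HDM replicate 1 or 2 left out, it was 2.51 or 2.35. *Glb1* did not pass with either IL-33 replicate left out. Variances in those fits came from the chronic HDM pairs and were moderated over all genes tested, which differed more between these libraries than *Glb1* did. *Glb1* shares 6.89% of its exon bases with *Tmppe* on the same strand, and *Tmppe* lay between 5.70 and 7.23 RPKM in all 4 libraries. The 250 bases before the *Glb1* start site are printed because this gene passed the test, and they hold 1 E-box core, in capitals.

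Glb1, chr9:114400828-114401077 (mm10, plus strand): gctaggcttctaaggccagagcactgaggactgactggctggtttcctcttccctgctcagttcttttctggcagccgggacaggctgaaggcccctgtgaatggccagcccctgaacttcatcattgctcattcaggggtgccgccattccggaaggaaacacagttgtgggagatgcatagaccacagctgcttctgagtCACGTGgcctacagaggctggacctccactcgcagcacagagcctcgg

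The libraries of the groups did not overlap for 5 of the 12 glycosidases with higher levels after IL-33 and for 2 with higher levels after chronic HDM, where 41.7% and 23.5% of all genes tested did so. The first share is that of all genes, and the median log2 fold change was 0.17. *Gusb*, the β-glucuronidase, lay at 74.4 and 64.8 RPKM after IL-33 and at 37.4 and 37.7 RPKM after chronic HDM. Both pairs were tight and apart (log2 fold change 0.87, SE 0.22, adjusted p = 0.0483 by limma), with a fold change under the threshold. *Hexa*, the α-subunit of β-hexosaminidase, and *Neu1*, the lysosomal sialidase, had higher levels in both chronic HDM libraries, with log2 fold changes of −0.43 and −0.63 (adjusted p = 0.235 and 0.170 by limma). *Fuca1*, *Man2b1*, *Gaa*, *Gla*, *Manba* and *Galc*, which act on fucose, mannose, glycogen, galactolipids and β-mannosides, had log2 fold changes between −0.24 and 0.54.

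*Naglu* and *Idua*, which both degrade heparan sulfate, had discordant chronic HDM libraries. *Naglu* lay at 5.13 and 6.38 RPKM after IL-33, and at 22.2 RPKM in chronic HDM replicate 1 and 1.85 RPKM in replicate 2. The HDM libraries stood on either side of the IL-33 libraries, and the log2 fold change of −0.27 (adjusted p = 0.866 by limma) averages opposite positions. *Idua* lay at 6.64 and 6.16 RPKM after IL-33 and at 1.13 and 12.4 RPKM after chronic HDM, the reverse order of the HDM libraries. These rest on 1053 and 84 reads of *Naglu* and 96 and 1009 reads of *Idua* in chronic HDM replicates 1 and 2.

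The 5 sulfatases, which remove sulfate from glycosaminoglycans and sulfatide, had a summed level of only 16.5 to 34.9 RPKM and held differences in both directions, none of which passed. At an unadjusted p under 0.05 by limma, 1 was higher after IL-33 and 2 after chronic HDM, against 36.7% of all genes tested in either direction. *Galns* (chr8:122578237-122611487), which acts on keratan sulfate and chondroitin sulfate, lay at 12.4 and 12.2 RPKM after IL-33 and at 2.13 and 3.98 RPKM after chronic HDM. The IL-33 libraries were almost equal and well above both HDM libraries, with a ratio of means of 4.03 (log2 fold change 1.75, SE 0.43, adjusted p = 0.0434 by limma).

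*Sgsh* (chr11:119343489-119355510), the sulfamidase of heparan sulfate, lay at 0.850 and 0.750 RPKM after IL-33 and at 2.58 and 8.49 RPKM after chronic HDM. The groups did not overlap, and the HDM libraries differed by 1.41 on the log2 scale (log2 fold change −1.70, SE 0.64, adjusted p = 0.122 by limma). Of the exon bases of *Sgsh*, 21.9% overlap *Card14* on the other strand, and no strand setting is shown for the counting, so reads there cannot be assigned. *Card14* itself lay between 0.446 and 1.91 RPKM, with its highest value also in chronic HDM replicate 2.

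*Ids* (chrX:70343070-70365085), the iduronate sulfatase, lay at 1.05 and 1.18 RPKM after IL-33 and at 4.26 and 4.83 RPKM after chronic HDM. Both pairs agreed closely, with a 4.07-fold higher mean after chronic HDM (log2 fold change −1.39, SE 0.48, adjusted p = 0.0991 by limma) from 68 and 69 reads against 406 and 441. *Arsa*, the sulfatase of sulfatide, lay at 2.06 and 2.94 RPKM after IL-33 and at 1.58 and 10.4 RPKM after chronic HDM, so that the HDM libraries enclosed the IL-33 libraries. *Arsb*, the arylsulfatase of dermatan sulfate, had overlapping groups between 5.97 and 7.26 RPKM.

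In this group of 7 genes none passed the test, and the levels of the activator proteins lay in opposite directions. *Psap* encodes prosaposin, the precursor of the saposins that present sphingolipids to their hydrolases. It lay at 283 and 270 RPKM after IL-33 and at 322 and 600 RPKM after chronic HDM. Both HDM libraries were higher, replicate 2 by far the more (log2 fold change −0.67, SE 0.31, adjusted p = 0.180 by limma). *Gm2a*, the activator of ganglioside degradation, and *Grn*, the precursor of the granulins, were higher in both IL-33 libraries, with log2 fold changes of 0.75 and 0.74 (adjusted p = 0.0516 and 0.0569 by limma). *Lipa*, the acid lipase of cholesteryl esters, was at 19.5 and 19.6 RPKM after IL-33 and at 38.7 and 37.4 RPKM after chronic HDM, a difference with very little spread (log2 fold change −0.93, SE 0.25, adjusted p = 0.0565 by limma). *Asah1*, *Smpd1* and *Ppt1*, the acid ceramidase, the acid sphingomyelinase and a thioesterase, had log2 fold changes between −0.21 and 0.18 and overlapping groups.

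The 6 membrane proteins differed by at most 0.64 on the log2 scale, and none passed. The structural proteins LAMP-1 and LAMP-2 lay in opposite directions. *Lamp1* was the higher, at 111 and 143 RPKM after IL-33 and at 153 and 189 RPKM after chronic HDM (log2 fold change −0.43, SE 0.22, adjusted p = 0.216 by limma). *Lamp2* lay at 75.2 and 66.7 RPKM after IL-33 and at 40.3 and 50.3 RPKM after chronic HDM (log2 fold change 0.64, SE 0.24, adjusted p = 0.113 by limma). For each of these genes both libraries of a group lay on the same side of the other group. *Mcoln1*, a calcium channel, *Cd63*, a tetraspanin, *Scarb2*, the receptor that carries β-glucocerebrosidase, and *Cln3* had log2 fold changes between −0.43 and 0.20.

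Of the 3 V-ATPase subunits of the set, *Atp6v0d1* differed most between the groups, and 0 passed by limma, with 1 at an unadjusted p under 0.05 (36.7% of all genes tested in either direction). All 3 had higher levels in both IL-33 libraries, as did 41.7% of all genes tested, and for 2 of them the sign depended on the scaling. *Atp6v0d1* (chr8:105524470-105566040), a subunit of the membrane sector, lay at 87.3 and 97.7 RPKM after IL-33 and at 29.4 and 47.6 RPKM after chronic HDM. The lower IL-33 value stood well above the higher HDM value, and the ratio of means was 2.40 (log2 fold change 1.28, SE 0.29, adjusted p = 0.0371 by limma). *Atp6v1a* and *Atp6v1h*, subunits of the catalytic sector, had log2 fold changes of 0.29 and 0.22 (adjusted p = 0.482 and 0.618 by limma). The sign of both reversed under quantile scaling, and that of *Atp6v1h* also under scaling by the median of ratios or without 45S ribosomal RNA.

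The IL-33 libraries agreed closely over the lysosomal genes, and the chronic HDM libraries did not. Across the 44 genes, levels on the log2 scale correlated at r = 0.993 between the IL-33 libraries, at r = 0.880 between the chronic HDM libraries and at r = 0.840 to 0.856 between libraries of different groups. Genes are not independent replicates, and libraries of different depth and ribosomal RNA content were correlated. The median size of the difference was 0.19 between the IL-33 libraries and 0.45 between the chronic HDM libraries, and over all genes tested 0.23 and 0.57. In each pair the lysosomal genes thus had a slightly smaller median difference than all genes tested.

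Between the IL-33 libraries 0 of the 44 genes differed by over 1 or by over 2 on the log2 scale (3.6% and 0.326% of all genes tested). Between the chronic HDM libraries 8 did (18.2%, against 28.2% of all genes tested), and 4 of these differed by over 2 (9.09%, against 8.84%). The 4 were *Naglu*, higher in replicate 1 by 3.02, and *Idua*, *Arsa* and *Ctsl*, higher in replicate 2 by 2.66, 2.14 and 2.01. *Sgsh*, *Ctsh* and *Ctsz* were higher in replicate 2 and *Smpd1* in replicate 1, each by between 1 and 2.

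Most lysosomal genes had their higher value in chronic HDM replicate 2. Of the 44 genes, 33 were higher in chronic HDM replicate 2 and 11 in replicate 1, with a median difference of 0.31, whereas over all genes tested 4211 were higher in replicate 2 and 5187 in replicate 1, with a median of −0.10. Of the 46 genes, 16 (34.8%) had their highest level of the 4 libraries in chronic HDM replicate 2, as did 19.2% of all genes tested, and 5 had it in chronic HDM replicate 1.

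**Figure D2:**
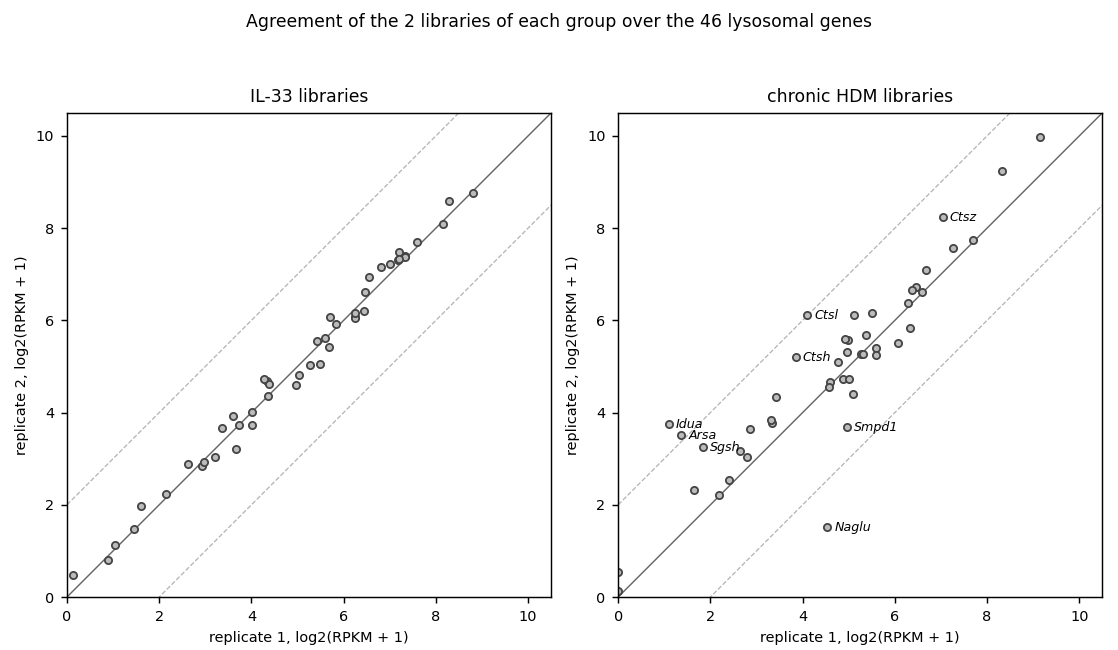
Agreement of the replicate libraries over the 46 lysosomal genes. Each point is a gene, plotted at its log2(RPKM + 1) in replicate 1 (x axis) and replicate 2 (y axis) of the IL-33 group (left) and the chronic HDM group (right). The solid line marks equal levels and the dashed lines a difference of 2, and genes that differ by over 1 are named, 0 after IL-33 and 8 after chronic HDM.

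Since 1 chronic HDM library decides several values, the comparison was repeated without each of them, with the spread then taken from the IL-33 pair alone. Without replicate 1, 3 genes passed with a higher level after IL-33 (19.8% of all genes tested) and 4 with a higher level after chronic HDM (5.39%). The 3 were *Glb1*, *Ctsh* and *Lgmn*, and the 4 were *Ctsd*, *Ctsl*, *Psap* and *Sgsh*, with log2 fold changes of −1.53, −2.24, −1.12 and −2.40. Without replicate 2, 9 genes passed with a higher level after IL-33 (20.8% of all genes tested) and 1 (*Naglu*, −1.78) with a higher level after chronic HDM (7.05%). In that fit *Ctsd* had a log2 fold change of −0.71 and an adjusted p of 0.0266 by limma. In the same fit *Ctsl* and *Psap* had log2 fold changes of −0.24 and −0.22. Without replicate 1 or 2, the log2 fold change was 2.51 or 2.35 for *Glb1*, 2.15 or 3.50 for *Ctsh* and 1.49 or 2.14 for *Lgmn*. Both fits used the same IL-33 pair and are not independent of each other.

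Macrophage markers were highest in the library in which most of the lysosomal genes exceeded their replicate. The summed level of the 20 markers was 1253 and 288 RPKM in the IL-33 libraries, against 3113 and 8610 RPKM in the chronic HDM libraries. Most of it came from *Chil3* (1155, 261, 2144 and 6162 RPKM), a chitinase-like secreted protein, and *Lyz2* (70.2, 17.2, 933 and 2259 RPKM), a lysozyme. Without these the remaining 18 markers summed to 27.5 and 9.63 RPKM after IL-33 and to 36.4 and 188 RPKM after chronic HDM, with replicate 2 highest. Of the 10 tested markers, 6 had higher levels in both chronic HDM libraries (23.5% of all genes tested), among them *Lyz2*, *Adgre1* and *Mertk*. The groups overlapped for the other 4. Of the 19 markers with a read, 17 were highest in chronic HDM replicate 2.

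The defining receptor *Csf1r* lay at 0.753, 0.287, 0.756 and 6.92 RPKM, and *Adgre1*, which encodes F4/80, at 0, 0.0260, 9.25 and 3.43 RPKM. *Fcgr1* was at 0 in all libraries, and *Itgam*, which encodes the CD11b used to exclude myeloid cells in the sort, was at 0 in 3 libraries and at 0.152 RPKM in chronic HDM replicate 2. *Itgax*, which encodes CD11c, also among the excluded lineage markers, was detected in every library, at 2.56, 0.853, 3.27 and 7.2 RPKM. *Cd68* lay at 13.5, 4.95, 5.54 and 51.7 RPKM and *Fabp4* at 6.85, 0.939, 3.60 and 53.6 RPKM. The number of markers at 0 was 7 and 9 in the IL-33 libraries, against 10 and 1 in the chronic HDM libraries. None of the 10 markers that could be tested passed by limma, with 4 higher after chronic HDM at an unadjusted p under 0.05 (36.7% of all genes tested in either direction).

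*Ctsd*, *Psap*, *Ctsl*, *Sgsh* and *Arsa* were highest in chronic HDM replicate 2, as were 17 of the 19 markers with a read, though not *Adgre1* or *Mertk*, a phagocytic receptor (0.130, 0, 12.8 and 7.88 RPKM). The part of macrophage RNA in these levels was not tested. *Ctsh*, *Lgmn* and *Ctsz* were also higher in chronic HDM replicate 2 than in replicate 1, yet lay below both IL-33 libraries. *Glb1*, *Ids*, *Lipa* and *Ctsw* had nearly equal levels in the chronic HDM libraries, with differences of at most 0.17 on the log2 scale. For these genes too, the part of macrophage RNA was not tested.

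**Figure D3:**
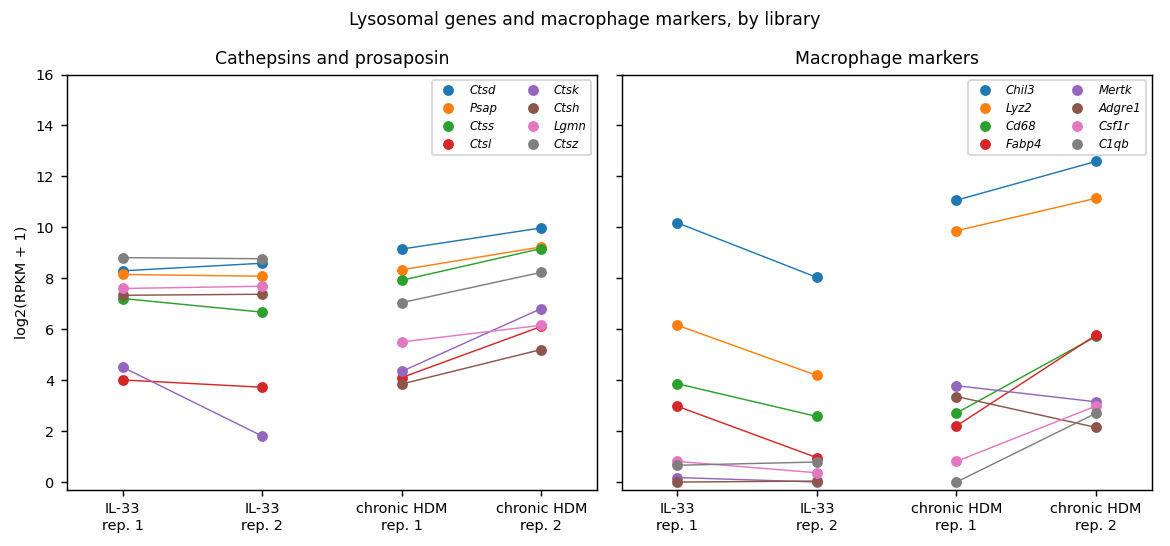
Lysosomal genes (left) and macrophage markers (right) in the 4 libraries, as log2(RPKM + 1). Each color is a gene named in the key, points are single libraries, and lines join the libraries of a group for reading only. *Ctsd* lies at 566 and 1007 RPKM and *Lyz2* at 933 and 2259 RPKM in chronic HDM replicates 1 and 2, whereas *Ctsh*, *Lgmn* and *Ctsz* are highest in the IL-33 libraries.

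Further lysosomal genes were read from the same fit in lists set by role, and 1 of their 112 tested genes passed, with a higher level after chronic HDM. Of all genes tested, 2.8% passed with a higher level after IL-33 and 0.536% after chronic HDM. *Smpdl3a*, a phosphodiesterase related to acid sphingomyelinase, lay at 20.6 and 28.7 RPKM after IL-33 and at 144 and 124 RPKM after chronic HDM. It was the only lysosomal gene in these lists or the set with a higher level after chronic HDM that passed (log2 fold change −2.41, adjusted p = 0.00752 by limma). The other 18 tested genes of the list of 20 hydrolases did not pass, and the median of the list was 0.17.

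The 8 other proteases had the lowest median of the lists, −1.08. At an unadjusted p under 0.05 by limma, 1 was higher after IL-33 and 3 after chronic HDM, against 36.7% of all genes tested in either direction. *Ctss*, cathepsin S, which trims the invariant chain of MHC class II, lay at 147 and 101 RPKM after IL-33 and at 242 and 575 RPKM after chronic HDM, with replicate 2 highest as for *Ctsd* (log2 fold change −1.61, adjusted p = 0.0563 by limma). *Ctso*, cathepsin O, lay at 6.82 and 8.18 RPKM after IL-33 and at 41.6 and 22.5 RPKM after chronic HDM (log2 fold change −1.90, adjusted p = 0.0294 by limma). *Ctse*, the aspartic protease cathepsin E, lay at 3.33 and 3.23 RPKM after IL-33 and at 20.6 and 9.95 RPKM after chronic HDM (log2 fold change −1.84, adjusted p = 0.0481 by limma). Both had their highest value in chronic HDM replicate 1, unlike *Ctss*. *Scpep1*, a serine carboxypeptidase, lay at 97.1 and 92.2 RPKM after IL-33 and at 29.0 and 12.7 RPKM after chronic HDM (log2 fold change 2.24, adjusted p = 0.0206 by limma). The groups did not overlap for these 4 proteases, 1 higher after IL-33 and 3 after chronic HDM (41.7% and 23.5% of all genes tested). For the other 4 of the list they overlapped.

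None of the genes in the other 6 lists passed by limma. The 15 tested V-ATPase subunits outside the set had a median of 0.44, and 9 of them had higher levels in both IL-33 libraries and 3 in both chronic HDM libraries (41.7% and 23.5% of all genes tested). *Atp6v0a1*, a subunit of the membrane sector, had the log2 fold change of greatest size in this list. It lay at 0.443 and 0.408 RPKM after IL-33 and at 5.16 and 7.29 RPKM after chronic HDM (log2 fold change −2.33, adjusted p = 0.0318 by limma). *Atp6v1f*, the highest of these, lay at 461 and 418 RPKM after IL-33 and at 250 and 303 RPKM after chronic HDM (log2 fold change 0.67, adjusted p = 0.0482 by limma). The 20 tested genes of mTORC1 signalling and TFEB control had a median of 0.45, with 9 higher in both IL-33 libraries and 5 in both chronic HDM libraries, shares near the 41.7% and 23.5% of all genes tested. *Lamtor5* and *Lamtor2*, subunits of the Ragulator scaffold, had log2 fold changes of 0.65 and 0.18, and that of *Lamtor2* reversed under scaling by quantiles, by the median of ratios or without 45S ribosomal RNA.

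The 15 tested membrane proteins, the 7 genes of mannose 6-phosphate sorting and the 25 autophagy genes had medians of 0.42, 0.025 and 0.047. *Laptm5*, a lysosomal membrane protein of blood cells, was the highest of these at 597 and 632 RPKM after IL-33 and at 700 and 695 RPKM after chronic HDM (log2 fold change −0.18). *Slc11a1* had the log2 fold change of greatest size among the membrane proteins. It lay at 15.5 and 9.61 RPKM after IL-33 and at 0 in both chronic HDM libraries (log2 fold change 3.73, adjusted p = 0.0115 by limma). Of the 15 membrane proteins, 6 had higher levels in both IL-33 libraries and 4 in both chronic HDM libraries (41.7% and 23.5% of all genes tested). *Sqstm1*, the autophagy receptor p62, lay between 456 and 577 RPKM in all libraries with overlapping groups. *M6pr*, the mannose 6-phosphate receptor, lay at 164 and 153 RPKM after IL-33 and at 186 and 85.9 RPKM after chronic HDM. Of the cystatins, which inhibit cysteine cathepsins, 3 were tested. Higher levels in both IL-33 libraries were found for 2 and in both chronic HDM libraries for 1 (41.7% and 23.5% of all genes tested). *Cst3*, the secreted cystatin C, was the highest, at 422 and 378 RPKM after IL-33 and at 223 and 297 RPKM after chronic HDM (log2 fold change 0.63, adjusted p = 0.0780 by limma).

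**Figure D4:**
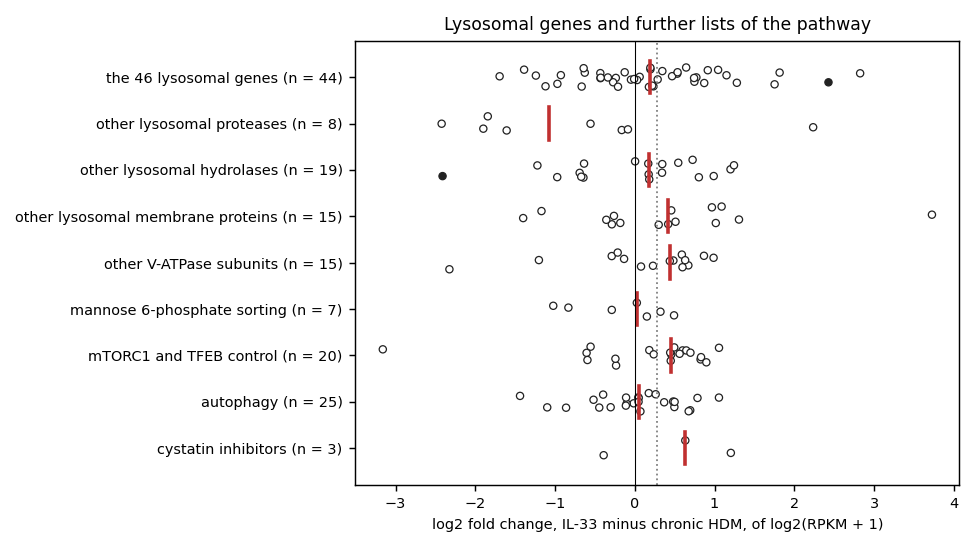
Log2 fold changes of the lysosomal genes and of 8 further lists of the pathway. Each point is a tested gene (positive, higher after IL-33), filled where it passed the test, the red bar is the median of the list, and the dotted line is the median of all genes tested, 0.28. *Glb1* in the top row and *Smpdl3a* among the hydrolases are the filled points, and the other proteases have the lowest median, −1.08.

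Exons of 15 of the 46 genes overlap another gene in the GENCODE annotation of mm10, in 8 of them by over 10% of exon bases. For *Ctsd*, 31.5% are shared with a predicted transcript on the same strand, and for *Ctsl* 28.2% with an antisense transcript. Reads in such stretches cannot be assigned to a gene here, and their part in the values was not tested.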

How the data were processed

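RNA of sorted BAL fluid ILC2s was sequenced by the authors from Smart-seq2 libraries as single 51-bp reads on an Illumina HiSeq2500 and aligned to mm10 with HISAT2 (the submitters' processing notes give version 2.0.4). The deposited values are RPKM per gene from HOMER, counted over the exons of a single RefSeq transcript per gene and normalized to 10000000 reads before the RPKM step, per the file headers, which call the column FPKM. The authors tested counts with DESeq2 and named *Ctsd* and *Ctss* among the genes with higher expression after chronic HDM. Neither gene passed the different test used here, though both had higher levels in both chronic HDM libraries. At the same thresholds the authors reported many more genes in each direction than passed here, 267 higher after IL-33 and 51 after chronic HDM. As RPKM values are not counts, limma 3.58.1 under R 4.3.3 was run here on log2(RPKM + 1) over the 9523 genes that averaged 2 RPKM or more, without covariates and with the thresholds of the study. Variances were moderated by empirical Bayes along a trend with the level, tests were two-sided, and p-values were adjusted after Benjamini and Hochberg. Standard errors (SE) are those of limma. The 46 genes and all lists were chosen with earlier results of these data known.

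Depth was read from the steps of RPKM multiplied by exon length, which came within 0.1 of a whole read for 99.8% to 100% of values up to 20 reads, and was 10696041 to 16092268 reads in genes. Rows without a read in any library numbered 10089. Per-library values are given for genes that passed, genes with separate groups and a log2 fold change over 1 in size, genes whose chronic HDM libraries differed by over 2 on the log2 scale, the highest gene of each role, the TFEB family and, of other lists, up to 4 genes that passed or the 2 highest. *Tfec*, *Scpep1*, *Ctso*, *Ctse*, *Atp6v0a1*, *Slc11a1*, *Mertk*, *Csf1r*, *Adgre1*, *Itgam*, *Itgax*, *Cd68*, *Fabp4*, *Fcgr1* and several members were given values outside this rule, after the values had been seen. Gene positions are those of the deposited files (mm10). The procedure was run on simulated data in which all libraries shared the same spread. In the deposited data the median difference was 0.23 between the IL-33 libraries and 0.57 between the chronic HDM libraries. The simulation therefore does not measure the error of the calls made here. Promoters are from RefSeq, and sequences of 6 genes without an entry (*Ctsw*, *Ctsh*, *Atp6v1h*, *Asah1*, *Ctsb* and *Galns*) were not used here.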

Additional observations from a re-analysis of the deposited data

How the results depend on the processing

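With 2 libraries per group, calls depended on the scaling, the pseudocount and the minimum level as well as on how the spread was estimated. The number of lysosomal genes that passed with a higher level after IL-33, 1 in the reported fit, was 0 with a pseudocount of 0.1, without a minimum level, without the intensity trend or with limma-voom, 3 with a minimum of 10 RPKM, 5 at an adjusted p of 0.05 and 0 to 9 with 1 library left out. The number with a higher level after chronic HDM, 0 in the reported fit, was 0 to 4 with 1 library left out and 0 under the other alternatives but the replicate block. For *Glb1* the log2 fold change ranged from 1.98 to 2.51 over 16 alternatives and the adjusted p by limma from 5.9e-05 to 0.324. Of all genes tested, 267 passed with a higher level after IL-33 and 51 after chronic HDM. Both were 0 with limma-voom, with a pseudocount of 0.1, with no minimum or with no trend. They were 639 and 152 with a minimum of 10 RPKM, 148 and 119 with quantile scaling, 111 and 45 with the median of ratios, 52 and 29 without 45S ribosomal RNA, 1311 and 455 at an adjusted p of 0.05, and 0 to 1960 and 0 to 664 with 1 library left out.

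With the replicate number as a block, 5 lysosomal genes passed with a higher level after IL-33 and 1 after chronic HDM (*Ctsd*), and 987 and 267 of all genes. The libraries share only a number: deviations of same-numbered libraries from their group means correlated at r = −0.038 over 9523 genes, with 2 pairs.

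The median log2 fold change of the lysosomal genes, 0.19, was −0.12 with quantile scaling, −0.091 without 45S ribosomal RNA and 0.091 to 0.20 with 1 library left out. Of 693 values of the lysosomal genes under the alternatives, 654 kept their direction. The 39 reversals fell on 18 genes with a log2 fold change of at most 0.64 in size, and 26 genes had none. Quantile scaling gave −0.28 for *Ctsb*, −0.071 for *Man2b1*, −0.39 for *Asah1*, −0.057 for *Smpd1*, −0.26 for *Mcoln1*, −0.084 for *Atp6v1a*, −0.095 for *Atp6v1h*, −0.058 for *Arsb*, −0.082 for *Atp6v0e*, −0.23 for *M6pr*, −0.34 for *Lamtor2* and −0.41 for *Sqstm1*. The median of ratios gave −0.17 for *Asah1*, −0.044 for *Smpd1*, −0.032 for *Mcoln1*, −0.0063 for *Atp6v1h*, −0.021 for *Scarb2*, −0.17 for *Arsb*, −0.050 for *Lamtor2* and −0.19 for *Sqstm1*. Scaling without 45S ribosomal RNA gave −0.053 for *Ctsb*, −0.22 for *Asah1*, −0.096 for *Smpd1*, −0.086 for *Mcoln1*, −0.059 for *Atp6v1h*, −0.072 for *Scarb2*, −0.23 for *Arsb*, −0.10 for *Lamtor2* and −0.24 for *Sqstm1*. With limma-voom, *Asah1* had −0.052, *Arsb* −0.081 and *Sqstm1* −0.077. With 1 library left out the range was −0.58 to 0.10 for *Gaa*, −0.86 to 1.79 for *Idua*, −0.52 to 0.26 for *Manba*, −1.78 to 1.24 for *Naglu*, −0.062 to 0.18 for *Asah1*, −0.46 to 0.81 for *Smpd1*, −0.45 to 0.027 for *Ppt1*, −0.84 to 0.16 for *Cd63*, −0.26 to 0.17 for *Tfe3*, −0.067 to 0.46 for *Scarb2*, −1.71 to 0.43 for *Arsa*, −0.093 to 0.15 for *Arsb*, −0.054 to 0.036 for *Galc*, −0.23 to 0.88 for *M6pr*, −0.13 to 0.21 for *Sqstm1* and −0.12 to 0.091 for *Gabarap*. A group left with 1 library was assumed to vary like the other. The cause of these changes was not tested. At this depth 3 reads on 1 kb limit levels to 0.156 to 0.255 RPKM, which bears on *Tfeb* and *Mitf*.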
